A study of Mus musculus with 3 samples.

Results

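Twist1 genomic occupancy was examined at 9 Schwann cell and nerve tumor genes, *Nf1*, *Nrg1*, *Erbb3*, *Erbb4*, *Sox10*, *Egr2*, *Ngfr*, *Pdgfra* and *Egfr*, of 22225 protein-coding genes in the annotation. A peak was assigned to a gene when a deposited peak list named that gene as the nearest one at lower or at higher coordinates, at a distance of 0 to 50 Kb. This rule used gene names and distances only, and it gave 24 of the 67468 peaks in the 3 lists. Of these, 2 were in endocardial cushions (ECCs), 16 in limb buds and 6 in peripheral nerve sheath tumor (PNST) cells.

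Twist1 ChIP-seq, in which DNA bound to Twist1 is recovered with an antibody and sequenced, compared where this protein sits on the genome in 3 sources. ECCs were cushion tissue dissected from the atrioventricular canal of wild-type FVB/N embryos at E12.5. Limb buds were forelimb buds of wild-type FVB/N embryos at E10.5. PNST cells were a cultured mouse tumor cell line that the labels also give as FVB/N, with no mutation named for it. Embryos of several litters, or several culture plates, were pooled into 1 sample for each source, so no difference between tissues has a replicate check and none was tested. Tissue, age, culture and sequencing depth cannot be told apart. Peak lists hold no expression values, so the identity of the cells could not be checked against marker genes.

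Twist1, a transcription factor of the basic helix-loop-helix family, binds the sequence CANNTG, called an E-box, and acts in embryonic mesenchyme and in invasive tumor cells. Schwann cells wrap peripheral nerves and arise from the neural crest. Axons guide them with neuregulin, a ligand that Nrg1 encodes and that the receptor tyrosine kinases ErbB3 and ErbB4 bind, while the transcription factors Sox10 and Egr2 set Schwann cell identity and myelination. Nerve sheath tumors can arise when *Nf1*, which encodes the Ras inhibitor neurofibromin, is lost, and the growth factor receptors EGFR and PDGFRA are well studied in these tumors.

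The depth of the samples differed. With duplicate tags removed, the list headers gave 14893391 tags in limb buds, 11823220 in PNST cells and 3149934 in ECCs, and the lists held 48965, 7538 and 10965 peaks. The deposited limb bud list holds many more tags and peaks than the limb bud data described in the study's text. It was used as deposited, and every limb bud count, background share and depth comparison given here rests on it. The smallest count of any called peak was 8 tags in limb buds, 7 in PNST cells and 5 in ECCs. Scaled to tags per 1000000 filtered tags, these minimums were 0.537, 0.592 and 1.59, so the ECC minimum lay above the level of each of the 16 limb bud and 6 PNST peaks.

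The sequences of some of the peaks are shown first. Each is the mm9 plus strand of the whole peak, 5′ to 3′, with every E-box in capitals. They are the peak of highest fold enrichment in each tissue, where fold enrichment is the tag density of the summit divided by the local background that the peak caller estimated, and the PNST peak closest to an annotated transcript start. A peak chosen by fold enrichment need not hold many tags: the *Erbb4* peak held 7, the smallest count in the PNST list.
*Nf1*, ECCs, chr11:79174247-79174343: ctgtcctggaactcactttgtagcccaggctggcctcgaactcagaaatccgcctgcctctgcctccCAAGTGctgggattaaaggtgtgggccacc
*Ngfr*, limb buds, chr11:95481896-95482056: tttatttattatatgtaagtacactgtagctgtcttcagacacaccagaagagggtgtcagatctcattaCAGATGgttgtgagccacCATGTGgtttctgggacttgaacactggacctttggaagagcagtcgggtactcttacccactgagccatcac
*Erbb4*, PNST cells, chr1:68159225-68159374: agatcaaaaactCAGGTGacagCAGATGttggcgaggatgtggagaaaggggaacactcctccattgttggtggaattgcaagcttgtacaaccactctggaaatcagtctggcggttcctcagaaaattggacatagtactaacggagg
*Egfr*, PNST cells, chr11:16779373-16779559: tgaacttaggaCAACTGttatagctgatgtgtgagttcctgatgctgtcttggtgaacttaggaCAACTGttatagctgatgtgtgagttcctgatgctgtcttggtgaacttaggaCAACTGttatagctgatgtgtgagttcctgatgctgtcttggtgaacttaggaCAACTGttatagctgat

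The *Egfr* sequence is a tandem repeat: it matched itself at 100% of bases when shifted by 53 bp, and each unit carried the same E-box, CAACTG. The other 3 sequences recur, in whole or in part, elsewhere in mm9. A 50-mer, a run as long as 1 sequencing read, was called repeated when it occurred more than once in mm9 on either strand. Of the 50-mers in the *Nf1* peak 100% were repeated, with a median of 24 genomic copies each. The corresponding values were 67.9% and 69.5 copies for the *Ngfr* peak and 100% and 176 copies for the *Erbb4* peak. How tags that match several places were assigned is not given in the sources used here, and the part of this in the results was not tested.

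Of the 9 genes, 7 had a peak within 50 Kb in at least 1 tissue, and *Sox10* and *Egr2* had none. In ECCs the genes with a peak were *Nf1* and *Egfr*. In limb buds they were *Nf1*, *Erbb3*, *Erbb4*, *Ngfr* and *Egfr*, and in PNST cells *Nrg1*, *Erbb4*, *Pdgfra* and *Egfr*. *Egfr* was the gene with a peak in all 3 tissues, *Nf1* had peaks in both embryonic tissues, and *Erbb4* had peaks in limb buds and PNST cells. Another rule counted any peak within 50 Kb of the start of a coding transcript, whatever gene the list named. *Erbb4* then lost its call in both tissues and *Nrg1* in PNST cells, while *Sox10* in limb buds and *Erbb3* in PNST cells gained one. Both gains were peaks that the list named for another gene.

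**Figure D1:**
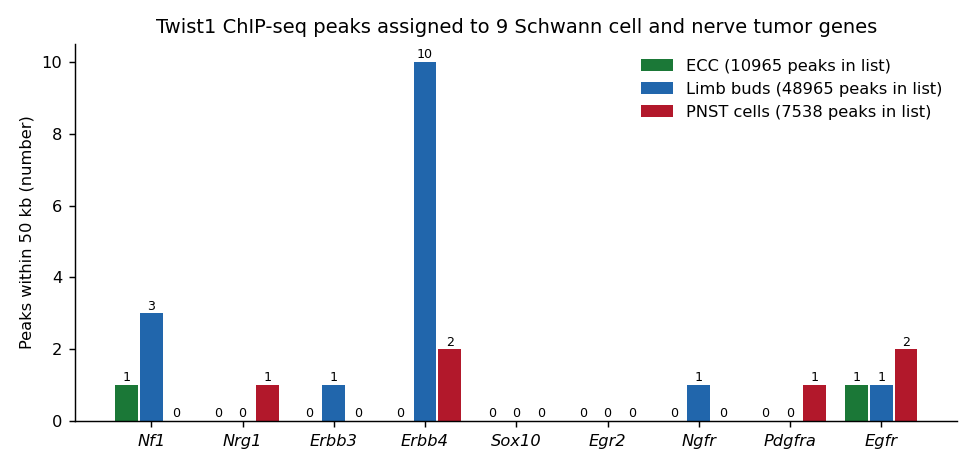
Number of peaks within 50 Kb (vertical axis) for each of the 9 genes (horizontal axis), with 1 bar for each tissue and the number printed above it. The 10 limb bud peaks at Erbb4 are the tallest bar, and Sox10 and Egr2 have no peak in any tissue.

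These counts were read against all genes. In ECCs 2 of 9 genes had a peak, 22.2% (95% exact binomial interval 2.81 to 60%), and 22.5% of all protein-coding genes did. In limb buds 5 of 9 did, 55.6% (21.2 to 86.3%), against 54% of all genes. In PNST cells 4 of 9 did, 44.4% (13.7 to 78.8%), against 14.6% of all genes, and the share of all genes lay just inside this interval. The intervals cover counting error only.

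Gene length matters to such counts, since a long gene offers more places within 50 Kb. Of genes that span 150 Kb or more, 46% had a peak in PNST cells, 57.1% in ECCs and 92.4% in limb buds. *Nf1*, *Nrg1*, *Erbb4* and *Egfr* belong to this class, and 3, 2 and 3 of these 4 had one. Of genes that span less than 50 Kb, 10.4% had a peak in PNST cells, 17% in ECCs and 45.7% in limb buds. Among the 5 members of this class, *Erbb3*, *Sox10*, *Egr2*, *Ngfr* and *Pdgfra*, 1, 0 and 2 had one. In each class and tissue the share of all genes lay inside the exact interval of the members, which was wide at 4 or 5 genes, so the counts at the 9 genes did not stand apart from genes of like length.

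*Nrg1*, the ligand gene (chr8:32928500-33119581, minus strand), had 1 peak within 50 Kb, in PNST cells at chr8:32879161-32879309. It held 7 tags (95% exact Poisson interval 2.81 to 14.4), the smallest count in that list, with a fold enrichment of 12.1. The peak lay downstream of the annotated gene, 49339 bp from the exon to which the list measured, so it was just inside the limit. It held no E-box. The annotation used here carries a gene model of 191 Kb for *Nrg1*.

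No *Nrg1* peak lay within 50 Kb in ECCs or limb buds. The nearest limb bud row that named *Nrg1*, at chr8:32791980-32792136, was 136520 bp away and held 10 tags, and 17 limb bud rows in all named the gene beyond the limit. In ECCs 2 rows named it, the nearest 643649 bp away with 7 tags. PNST cells had 3 further rows, the nearest 308560 bp away with 11 tags, and the row after it held 14 tags at a fold enrichment of 36.4, 612472 bp away. By the 191 Kb gene model used here, these far rows lay upstream or downstream of *Nrg1*, which the list named as the nearest gene on that side. Whether a longer transcript of *Nrg1* reaches any of them was not tested.

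*Erbb3*, the gene for the kinase-impaired neuregulin receptor of Schwann cells, spans 22.1 Kb on chromosome 10 (chr10:128004579-128026708, minus strand). It had 1 peak, in limb buds, 15.7 Kb upstream of its transcript start at chr10:128042362-128042466. This peak held 10 tags (4.8 to 18.4), a fold enrichment of 17.6 and no E-box. No row of the ECC or PNST list named *Erbb3* at any distance.

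A further pair of peaks lay within 50 Kb of *Erbb3* but was named for *Rpl41*, a ribosomal protein gene. In PNST cells this peak, at chr10:127985258-127985532, held 17 tags at a fold enrichment of 18.2, and in limb buds the peak at chr10:127985339-127985485 held 11 tags at 11.8. The 2 peaks overlapped, and they lay 19 Kb and 19.1 Kb downstream of *Erbb3*. Distance to the gene body alone would therefore have given *Erbb3* a PNST peak that the naming of the list gave to a closer gene.

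*Erbb4*, the gene for the other neuregulin receptor, had the most peaks. It had 10 within 50 Kb in limb buds, 2 in PNST cells and none in ECCs. At 1080 Kb (chr1:68078760-69154633, minus strand) it is also the longest of the 9 genes. All 12 peaks were in its introns. Across the gene body and 50 Kb on each side, limb buds had 11.9 peaks per Mb, fewer than the 18.6 per Mb of the whole list, and PNST cells had 2.55 against 2.84. The count at *Erbb4* was thus the largest of the 9, and its density was below the mean of both lists.

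In limb buds the *Erbb4* peaks held 8 to 10 tags each, near the minimum of the list, at fold enrichments of 12.4 to 15.7, around the list median of 14.4. The peak with the most tags, at chr1:68565901-68566062 in intron 3, held 10 tags (4.8 to 18.4). Another 4 peaks held 9 tags each (4.12 to 17.1), at chr1:68399075-68399232 in intron 5, chr1:68458029-68458184 and chr1:68560671-68560810 in intron 3, and chr1:68610230-68610390 in intron 2. The remaining 5 peaks held 8 tags each. E-boxes were present in 6 of the 10 peaks.

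In PNST cells the peak at chr1:68159225-68159374 held 7 tags (2.81 to 14.4) in intron 20, at a fold enrichment of 15.2, and is the third sequence shown above. The other PNST peak, at chr1:68616719-68616853 in intron 2, held 8 tags (3.45 to 15.8) at 12.8. It lay 449 bp from a limb bud peak at chr1:68617302-68617439, which held 8 tags (3.45 to 15.8) at 15.7. These were the closest peaks of 2 tissues among the 24, and they did not overlap.

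Several limb bud peaks at *Erbb4* were alike in sequence. Stretches of at least 20 identical bases joined 7 of the 10, directly or through one another, with the limb bud peak at *Egfr*. The longest stretch shared by 2 *Erbb4* peaks was 58 bp, in capitals here, and the peaks that carry it lie in introns 2 and 5.
*Erbb4*, limb buds, chr1:68641154-68641279: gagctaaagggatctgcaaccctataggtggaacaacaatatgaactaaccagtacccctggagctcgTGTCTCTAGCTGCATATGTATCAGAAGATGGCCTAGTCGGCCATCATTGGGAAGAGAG
*Erbb4*, limb buds, chr1:68399075-68399232: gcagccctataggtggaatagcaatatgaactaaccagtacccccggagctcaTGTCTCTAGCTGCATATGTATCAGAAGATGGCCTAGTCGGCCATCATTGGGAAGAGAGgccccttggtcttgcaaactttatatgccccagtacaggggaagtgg

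The shared stretch contains an E-box, CATATG, so the peaks that have it are not independent examples of an E-box at *Erbb4*. The first of these sequences had a median of 112 genomic copies per 50-mer and the second 210.

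The rule left out peaks deep in the long introns of *Erbb4*, because the lists measured distance to an exon and not to the gene. Just outside the limit, a peak of ECCs at chr1:68659256-68659477 lay 52186 bp from the exon and one of limb buds at chr1:68659368-68659524 lay 52298 bp from it. They held 6 tags at a fold enrichment of 26.5 and 10 tags at 14.2, and they overlapped in intron 2. A further overlapping pair in intron 3, 72783 and 72901 bp away, held 8 tags in ECCs and 8 in limb buds. Thus both ECC peaks in the *Erbb4* gene body were overlapped by limb bud peaks, and neither was counted by the rule. The limb bud peak with the most tags in the *Erbb4* gene body was also outside the limit. It lay in intron 3 at chr1:68521538-68521703, 78783 bp from an exon, and held 15 tags (8.4 to 24.7) at a fold enrichment of 23.5 and a −log10 p of 11.9. The PNST list had 1 further peak in the gene, in intron 1, with 7 tags and 106808 bp from an exon.

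*Egfr* (chr11:16652206-16818161, plus strand), which encodes the epidermal growth factor receptor, was marked at a different place in each tissue. In ECCs the peak lay 6174 bp downstream of the gene at chr11:16824287-16824435, with 5 tags (1.62 to 11.7), the minimum of the list, and a fold enrichment of 37.6. In limb buds it lay 23 Kb upstream of the gene at chr11:16629159-16629291, with 8 tags (3.45 to 15.8), again the minimum, and a fold enrichment of 13.1. They held 2 and 1 E-boxes.

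In PNST cells *Egfr* had a pair of peaks in intron 13 of its longest transcript, 1.3 and 1.6 Kb past the start of a shorter coding transcript. The one at chr11:16779373-16779559 held 10 tags (4.8 to 18.4) at 12.3, and the one at chr11:16779678-16779911 held 15 tags (8.4 to 24.7) at 12.5. The latter had the most tags of the 6 PNST peaks. Both lay in the same 53-bp tandem repeat, both held 4 E-boxes, and all 187 bases of the shorter peak occurred in the longer one, and they became 1 peak when peaks within 200 bp were merged. They were also the only 2 of the 24 peaks within 5 Kb of the start of any coding transcript of their gene, and no peak lay within 1 Kb of one.

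Beyond the limit *Egfr* was named in 1 ECC row (214549 bp, 5 tags), 3 limb bud rows (the nearest at 63061 bp, 10 tags) and 1 PNST row (112787 bp, 8 tags). Across the gene and 50 Kb on each side, *Egfr* had 7.52 peaks per Mb in PNST cells, 3.76 in ECCs and 11.3 in limb buds. Over the genome the 3 lists had 2.84, 4.16 and 18.6. The PNST value counts the 2 peaks of the tandem repeat, which became 1 when merged. The limb bud value counts 3 peaks, of which the list gave only 1 to *Egfr*.

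*Pdgfra* (chr5:75548316-75594229, plus strand) encodes a platelet-derived growth factor receptor. It had 1 peak, in PNST cells, 20.4 Kb upstream of its start at chr5:75527798-75527969. The peak held 8 tags (3.45 to 15.8) at a fold enrichment of 15, had a GC content of 34.3% and no E-box, and its 50-mers had a median of 769 genomic copies. In limb buds 5 rows named *Pdgfra*, all beyond the limit, the nearest 112434 bp away with 17 tags and a fold enrichment of 5.45. No ECC row named it.

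*Ngfr* (chr11:95430132-95449049, minus strand) encodes the low-affinity neurotrophin receptor, a marker of immature Schwann cells and neural crest. Its 1 peak, in limb buds, lay 32.9 Kb upstream and is the second sequence shown above. It held 10 tags (4.8 to 18.4), and its fold enrichment of 20.2 was higher than that of 90% of the limb bud peaks. The 2 limb bud rows beyond the limit were 62326 and 68669 bp away with 8 tags each. No ECC or PNST row named *Ngfr*.

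The transcription factor genes had no peak. *Sox10* (chr15:78985343-78994920, minus strand), required for all stages of the Schwann lineage, was named in no row of the 3 lists. A limb bud peak of 10 tags and a fold enrichment of 17.8 at chr15:78973624-78973753 lay 11.6 Kb downstream of *Sox10*, and the list gave it to *Polr2f*, between exons of which it lay. The nearest ECC peak was 145.2 Kb from *Sox10* and the nearest PNST peak 93.2 Kb. *Egr2* (chr10:66998223-67004936, plus strand), the main activator of myelin genes, was named only in 2 limb bud rows, 86822 bp away with 9 tags and 223117 bp away with 8. Whatever gene the list named, the nearest peak to *Egr2* was 58 Kb away in limb buds, 86.1 Kb in PNST cells and 383.9 Kb in ECCs.

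*Nf1* (chr11:79153195-79395114, plus strand), the tumor suppressor gene, had 1 peak in ECCs and 3 in limb buds. The ECC peak, in intron 1 and 20.9 Kb past a transcript start, held 6 tags (2.2 to 13.1). Its fold enrichment of 56.4 was higher than that of 95.4% of the ECC list, and its −log10 p of 10.1 was the highest of the 24 peaks. Its 97 bases are the first sequence shown above.

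In limb buds the *Nf1* peaks were at other places. The one at chr11:79140228-79140379, 12907 bp upstream of the gene, held 10 tags (4.8 to 18.4) at 15.7 and shared a stretch of 31 bp with the *Ngfr* peak of the same tissue. The one at chr11:79229344-79229506 in intron 11 held 11 tags (5.49 to 19.7) at 13.1. The one at chr11:79398711-79398913, 3690 bp downstream of the gene, held 15 tags (8.4 to 24.7) at 11.5 and was a tandem repeat with a unit of 31 bp.

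In PNST cells no row named *Nf1*, and the nearest peak was 547.7 Kb from the gene. The copy number of *Nf1* in this cell line is not given in the sources used here and was not tested.

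**Figure D2:**
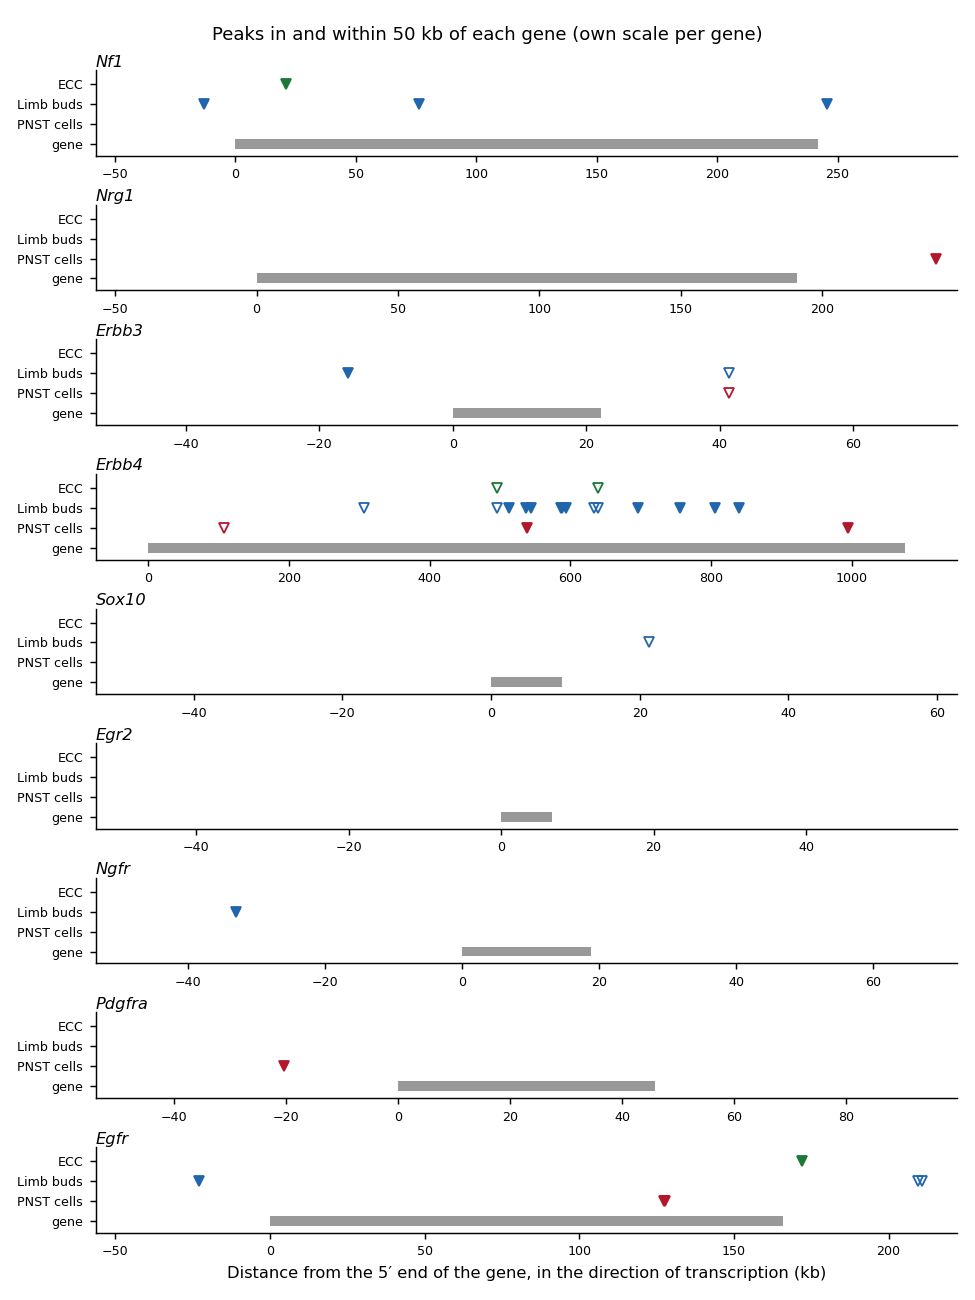
Peaks in the body of each gene and 50 Kb on each side, by distance in Kb from the 5′ end of the gene in the direction of transcription, with each gene as a grey bar on its own scale. Filled triangles are the 24 peaks of the rule and open triangles are peaks that the list gave to another gene or placed over 50 Kb from an exon, and overlapping peaks of different tissues occur only among the open triangles.

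No peak among the 24 was overlapped over at least 5% of its length by a peak of another tissue. With a count of 0, the exact 95% interval of the share reached 84.2% for the 2 ECC peaks, 20.6% for the 16 limb bud peaks and 45.9% for the 6 PNST peaks. Of all peaks within 50 Kb of any gene, 20.4% in PNST cells, 33.9% in ECCs and 9.2% in limb buds were overlapped by a peak of another tissue. Each of these lies inside the interval, so at this number of peaks the 9 genes could not be told from the rest.

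Whether a peak of one tissue could have been seen in another depended on depth. At equal tags per 1000000 filtered tags, the 16 limb bud peaks would have held 1.69 to 3.17 tags in ECCs and the 6 PNST peaks 1.86 to 4, all below the 5 tags of the smallest ECC peak. A lack of these sites in ECCs was thus not detectable at this depth. In the other direction, the ECC peak at *Egfr* would have held 18.8 tags in PNST cells and 23.6 in limb buds, and that at *Nf1* 22.5 and 28.4, above the minimums of 7 and 8, and neither place was called there. At the lower bound of the counting interval this remained so for the *Nf1* peak but not for the *Egfr* peak. That interval takes no account of both peaks having been chosen because they were called in ECCs, at or just above the list minimum. Both also lay largely or wholly in repeated sequence. The comparison therefore cannot show whether these sites were absent from limb buds and PNST cells.

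Between limb buds and PNST cells the depths were closer. All 6 PNST peaks would have reached the limb bud minimum at equal level, with 8.82 to 18.9 tags, and 10 of the 16 limb bud peaks would have reached the PNST minimum, with up to 11.9 tags. At the lower bound of the counting interval, 1 of the 6 and none of the 16 reached it. Most differences in presence between limb buds and PNST cells at these genes were therefore within counting error of the smallest count that is called.

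**Figure D3:**
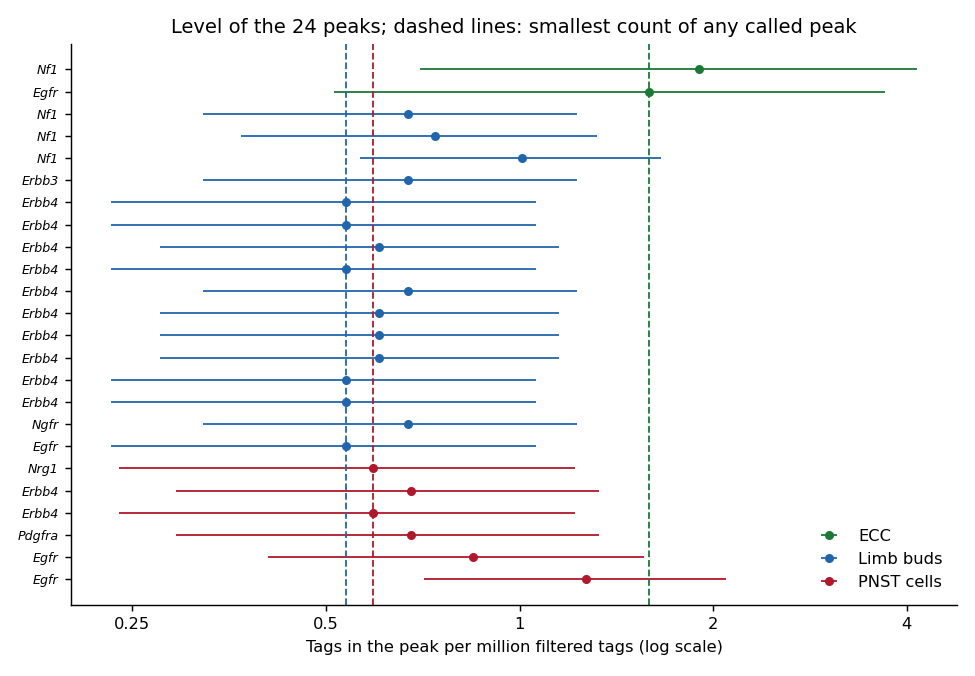
Tags per 1000000 filtered tags (horizontal axis, log scale) for each of the 24 peaks (rows, labelled by gene), with exact 95% Poisson intervals and dashed lines at the smallest count called in each list. The 2 ECC peaks are at or just above the ECC line at 1.59, and all limb bud and PNST peaks are to the left of it.

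In limb buds the peaks at the 9 genes were close to the list medians of tags and fold enrichment. In PNST cells the median tags matched the list, and no peak had a fold enrichment above the list median. In ECCs the 2 peaks had a higher fold enrichment than the list median. The median was 9 tags in limb buds, 8 in PNST cells and 5.5 in ECCs, and the medians of the whole lists were 10, 8 and 6. The smallest count of the list was held by 6 of 16, 2 of 6 and 1 of 2 peaks. In the same order, the median fold enrichment was 15.7, 12.7 and 47, against 14.4, 15.2 and 26.5 for the lists. Peaks of p 1e-10 or smaller made up 9.01%, 8.28% and 10.4% of the lists, and among the 24 only the ECC *Nf1* peak passed that value.

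**Figure D4:**
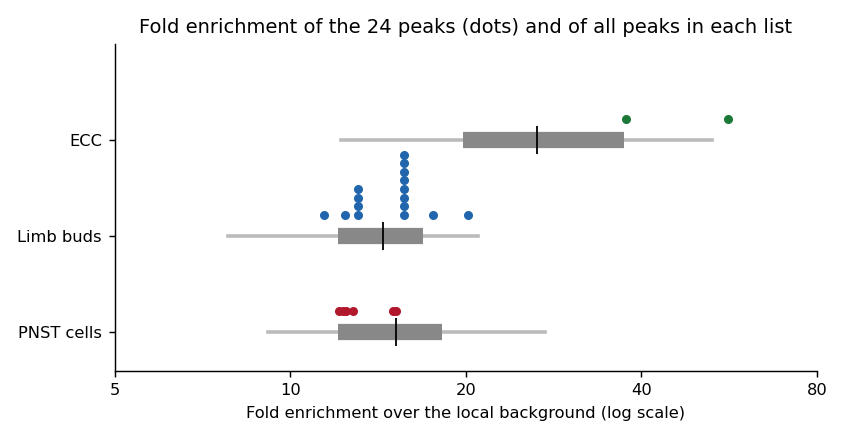
Fold enrichment (horizontal axis, log scale) of the 24 peaks as dots, stacked where equal, above the spread of each whole list, with thin lines from the 5th to the 95th percentile, thick bars for the middle 50% and a black tick at the median. The limb bud and PNST dots lie within the spread of their lists, and the ECC Nf1 peak at 56.4 lies beyond the 95th percentile of its list at 52.9.

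By position, 16 of the 24 peaks were in introns, 5 were upstream of the gene, 3 were downstream and none was in an exon. An E-box was present in 2 of 2 peaks in ECCs, 9 of 16 in limb buds (56.2%, exact interval 29.9 to 80.2%) and 4 of 6 in PNST cells (66.7%, 22.3 to 95.7%). The motif searched was CANNTG, which reads the same on both strands. Of all placed peaks, those on assembled chromosomes, 54.7%, 56% and 54% held one, so the shares at the 9 genes did not stand apart from the lists.

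Most of the peaks lay in repeated sequence. No peak among the 24 was free of repeated 50-mers, 16 consisted of them entirely, and the 1 peak with less than 50% was the limb bud *Erbb4* peak at chr1:68617302-68617439, with 39.3%. Peaks made entirely of repeated 50-mers were 1 of the 2 from ECCs, beside 49.6% of placed peaks in that list. Limb buds had 10 of 16, beside 58.4% of their list, and PNST cells had 5 of 6, beside 46.9%. Whether these shares differ from those of the lists was not tested for any tissue, and 2 to 16 peaks are few for such a comparison. What repeated sequence contributes to the presence or level of these peaks was not tested.

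**Figure D5:**
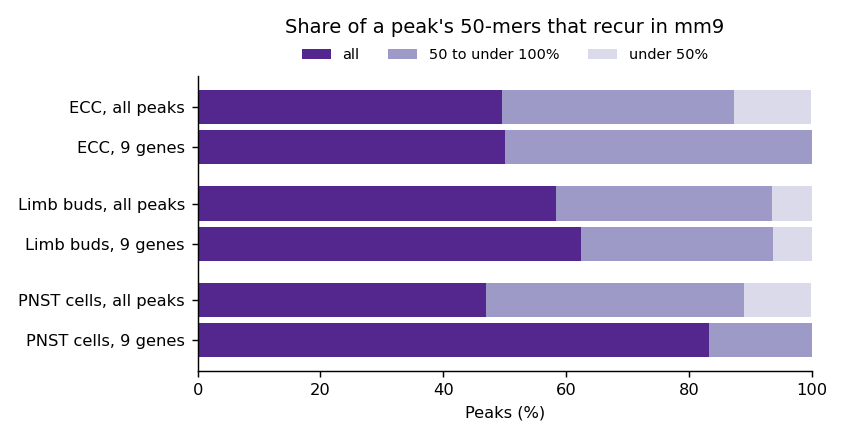
Share of peaks (horizontal axis, %) by how many of their 50-mers recur in mm9, for all placed peaks of each list and for the peaks at the 9 genes (2 in ECCs, 16 in limb buds, 6 in PNST cells). Dark bars, peaks made of repeated 50-mers only, cover 49.6%, 58.4% and 46.9% of the lists.

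The 9 genes were set beside 68 others of the same pathways, in 6 lists. In PNST cells 15 of the 68 had a peak within 50 Kb (22.1%, against 14.6% of all genes), in ECCs 19 (27.9%, against 22.5%) and in limb buds 47 (69.1%, against 54%). Gene length was not matched here. The median span of the 68 was 32 Kb, but the longest reached 1100 Kb, and what length contributes to these shares was not tested. Of 10 other ErbB ligands and receptors, 6 had a peak in limb buds and 2 in ECCs, and in PNST cells 2 did, *Nrg3* and *Btc*. *Erbb2*, the kinase-active partner of ErbB3, had none in any tissue. Of 5 PDGF ligands and receptors, 5 had a peak in limb buds, 1 in ECCs and 1, *Pdgfc*, in PNST cells. Of 7 neurotrophins and their receptors, 5 had one in limb buds, 4 in ECCs and 4 in PNST cells, *Bdnf*, *Ntrk2* and *Sort1* among them.

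The 14 Schwann lineage transcription factors are mostly short genes, with a median span of 8.4 Kb. Of these, 11 had a peak in limb buds (78.6%), 4 in ECCs (28.6%) and 1, *Pou3f2*, in PNST cells (7.14%). Of all genes that span less than 50 Kb, 45.7%, 17% and 10.4% had one, in the same order. Some of the 14 are longer, at 72.6 to 134 Kb, and each of these had a limb bud peak. The share of short genes is therefore not a like comparison for the whole list. Of 15 myelin and Schwann cell markers, 7 had one in limb buds (46.7%), 3 in ECCs (20%) and 2, *Mbp* and *Ncam1*, in PNST cells (13.3%). Of 17 nerve tumor suppressors and Ras pathway genes, 13 had one in limb buds (76.5%), 5 in ECCs (29.4%) and 5 in PNST cells (29.4%). *Nf2*, *Rb1*, *Rasa1* and *Met* were among those in PNST cells. Over all genes the shares were 54%, 22.5% and 14.6%. No list was tested against them, and gene length was not matched. The genes with the most peaks over the 3 tissues were *Nrg3*, *Pdgfc* and *Ntrk3*, with 8 each, and they span 1100, 178 and 386 Kb.

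The tumor suppressor list also held a site within 50 Kb that tissues shared, which the 24 peaks at the 9 genes did not. At *Nf2*, the gene lost in schwannomas, peaks of all 3 tissues overlapped, with 5 tags in ECCs (chr11:4767480-4767614), 13 in limb buds (chr11:4767530-4767688) and 8 in PNST cells (chr11:4767452-4767617). Of the 50-mers in these *Nf2* peaks 59.3%, 100% and 69.2% were repeated, and each peak held at least 2 E-boxes. Over the 68 genes, 2 of 18 PNST peaks, 8 of 25 ECC peaks and 7 of 111 limb bud peaks were overlapped by a peak of another tissue, beside 20.4%, 33.9% and 9.2% of all peaks within 50 Kb of any gene.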

How the data were processed

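Twist1 ChIP-seq peak lists were analysed for 1 pooled sample each of ECCs, limb buds and PNST cells. The authors aligned single reads of 50 bp to mm9, for which Eland v2 and Bowtie are both named, and used MACS 1.4.2 with p-values up to 1e-05 to call peaks. The headers name no control file, although the methods mention a genomic control of the same strain, which was not analysed here. The deposited tag counts keep at most 1 tag per position and are not normalized. The deposited p-value is given as 10 times its −log10, and was divided by 10 here. The deposited fold enrichment is a ratio to the local background. Length, summit and gene distances are in bp.

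Peak starts were used as 1-based. The deposited distances start at the peak start, and ended within 2 bp of the edge of an exon or its coding part in GENCODE vM1 for 95.1 to 96.9% of rows at lower coordinates and 77.1 to 78% at higher coordinates. GENCODE vM1 and the mm9 sequence (NCBIM37) have the build of the lists, and locations refer to the longest coding transcript. Older symbols of 2 listed genes came from RefSeq synonyms.

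Tags carry exact Poisson intervals and shares exact binomial intervals (95%). Every member peak was named where a gene had at most 6 in a tissue, otherwise those with the most tags, with the nearest row beyond 50 Kb. The 9 genes, the 6 lists and the comparisons were chosen with earlier results of these data known. The *Erbb4* pair shown for its common sequence and the peaks described in its gene body beyond 50 Kb were chosen after their values were seen. Some items named by these rules are not reported here. Code for overlaps, distances and 50-mers was tested on simulated data (Python 3.11.15, pandas 2.3.3, scipy 1.17.1). Distance limits, overlap rules, p-value and fold cut-offs, merging, list size and repeated sequence were varied.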

Additional observations from a re-analysis of the deposited data

How the results depend on the processing

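The presence of peaks at the 9 genes depended on the settings. With peaks of p 1e-10 or smaller, 1 gene and 1 peak were left in ECCs, and 0 genes and 0 peaks in limb buds and in PNST cells. With a fold enrichment of at least 20, limb buds kept 1 gene and 1 peak, PNST cells 0 and 0, and ECCs both of theirs. At 10 Kb, ECCs had 0 genes and 0 peaks, and limb buds had 2 genes and 6 peaks. PNST cells had 2 genes and 3 peaks, of which 100% held an E-box. These 3 include the *Egfr* pair, which lies in 1 tandem repeat. At 100 Kb, ECCs had 4 peaks and limb buds 26. With the gene body extended by 50 Kb, ECCs had 4 peaks. With any coding transcript start within 50 Kb, whatever gene the list named, limb buds had 7 peaks. Although the number of genes stayed within 1.5 times the reported one, the genes differed. *Erbb4* was lost in limb buds and PNST cells and *Nrg1* in PNST cells. *Sox10* in limb buds and *Erbb3* in PNST cells were gained, through peaks that the list named for another gene. In alternatives chosen after seeing the data, limb bud peaks reduced to the 7538 of smallest p, the size of the PNST list, left 1 gene and 1 peak, and peaks with under 50% of their 50-mers repeated left 1 gene and 1 peak in limb buds, and 0 genes and 0 peaks in PNST cells and ECCs. Each of these settings changes which rows are counted. The other 52 values were within 1.5 times the reported count or inside the exact interval of the reported share, in part because the intervals are wide. The gene body rule gave overlap with another tissue for 50% of 4 ECC peaks, where the reported rule gave 0% of 2. E-box and overlap shares at p 1e-10 could not be had in limb buds and PNST cells, nor could those at 10 Kb in ECCs, since no peak was left. No paired analysis was possible because each tissue has 1 sample and nothing was tested between tissues. For the same reason no sample could be left out. Depth limits ECCs most, and 1 sample per tissue leaves biological variation unmeasured.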
